A study of Mus musculus with 8 samples.

Results

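Lymphoid tissue inducer (LTi) cells of the small intestine lamina propria (LP) were compared with LTi cells of Peyer's patches (PP) in mice labelled knockout for Tcf7, across every gene with at least 1 RPKM (reads per kilobase of gene, scaled to the library's total reads) in at least 2 of the 4 libraries concerned. This kept 8789 of 27179 genes. The 4 libraries, 2 from each tissue, belong to a series of 8. Its other 4 are wild-type libraries of the same tissues, 2 from each. All mice were C57BL/6. The libraries labelled knockout came from mice with floxed Tcf7 alleles (Tcf7fl/fl) and a Cre recombinase transgene that deletes them in the cells that express it and in their progeny, and the wild-type libraries from Tcf7+/+ mice. The labels used here give neither ages nor the number of animals in a library. Every group was sorted with 1 gate for live cells without lineage markers, carrying CD127 and CCR6 and lacking KLRG1, NK1.1 and NKp46, and total RNA was amplified by Smart-seq2, a PCR-based method for very small samples. The labels do not say whether the 2 libraries of a group came from separate animals, so the p-values below measure only the spread between these libraries. In such bulk samples, fewer cells of a type and less RNA per cell cannot be told apart.

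LTi cells are group 3 innate lymphoid cells, a lineage of lymphocytes without rearranged antigen receptors. In the embryo they start lymph nodes and Peyer's patches by displaying lymphotoxin to stromal cells, and in the adult gut they are a main source of the cytokines IL-22 and IL-17, which act on the epithelium. TCF-1, the product of Tcf7, is a transcription factor of the Wnt pathway that is needed early in the development of innate lymphoid cells. Peyer's patches are organised follicles of B cells under a specialised epithelium, whereas the lamina propria is the loose tissue of the villi, rich in plasma cells.

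Tcf7 itself stood at 355.5 and 337 RPKM in PP libraries that carry the knockout label and at 237 and 215 RPKM in the LP libraries. The LP libraries lay below the PP libraries, but the difference of -0.62 ± 0.475 on the log2(RPKM + 1) scale (SE, n = 2 a group) did not pass (limma adjusted p = 0.586). Wild-type PP held 242.5 and 85.4 RPKM and wild-type LP 229 and 246 RPKM, so the transcript was not lower in the libraries labelled knockout. A gene-level value does not separate a deleted exon from the rest, and the genotype rests on the labels alone. Depth was estimated at 36.7 to 42.2 M reads per library, and 7437 to 8103 genes reached 1 RPKM in these 4 libraries. Across the 8789 genes, which are not independent, log2 levels had a Pearson r of 0.632 between the PP libraries, 0.639 between the LP libraries and 0.481 to 0.515 between the tissues. The gate's markers fitted the sort in part: Il7r (CD127) stood at 206 to 386 RPKM and Ccr6 at 89.3 to 398 RPKM, Ncr1 (NKp46) was listed at 0 in all 4, Klrg1 at 0.0365 RPKM or less, and Klrb1c (NK1.1) at 8.42 RPKM in PP replicate 2 and at most 0.187 RPKM in the others. The female transcript Xist stood at 60.3 RPKM in LP replicate 1 and at most 1.84 RPKM in the other 3, and the Y-linked Ddx3y at 67.5 RPKM in LP replicate 2, 8.93 and 1.36 RPKM in PP and 0.312 RPKM in LP replicate 1. The 2 LP libraries thus differed from each other in sex-linked transcripts. So did the PP libraries in the Y-linked Eif2s3y, at 40.7 RPKM in replicate 1 and 0.141 RPKM in replicate 2. Eif2s3y stood at 0.188 and 22.8 RPKM in LP, at 0.116 and 5.25 RPKM in wild-type PP and at 31.3 and 13.3 RPKM in wild-type LP. In wild-type, Xist stood at 9.6 and 9.2 RPKM in PP and at most 0.0784 RPKM in LP. Ddx3y stood at 0.779 and 0.223 RPKM in wild-type PP and 58.9 and 71.3 RPKM in wild-type LP. The Y-linked Kdm5d did not follow, at 18.3 RPKM in wild-type PP replicate 2 and at most 2.29 RPKM in wild-type LP. The part of sex in the results was not tested.

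Of the 8789 genes, 297 passed between the tissues (limma adjusted p under 0.05, 3.38% of those tested), 137 of them higher in LP (1.56%) and 160 lower in LP (1.82%), and 1597 had an unadjusted p under 0.05. The passing differences had a median size of 3.59 on the log2 scale, and the smallest was 1.02. The median standard error over all genes was 1.19, so most small differences could not be resolved. All genes together had a median of -0.32, which became 0.04 after median-of-ratios rescaling between libraries. The split of 137 higher and 160 lower then became 179 and 115, or 60.9% higher in place of 46.1%. Of the 160 lower genes, 98 entered through PP only, with both LP libraries under 1 RPKM, as did 39 of the 137 higher genes through LP only, against 959 of all genes by either way. Such genes are on in 1 tissue and off in the other by construction of the filter, and counts over them describe these libraries only. The count rested on the spread shared by all 8 libraries. When the 4 libraries labelled knockout were fitted alone, 0 genes passed with limma and 1665 had an unadjusted p under 0.05. Without wild-type LP replicate 1 or 2, 36 or 38 genes passed, all of them among the 297. Without PP replicate 1 or 2 labelled knockout 136 or 134 passed, of which 115 and 118 were among the 297, and without LP replicate 1 or 2 labelled knockout 84 or 100 passed, of which 63 and 65 were. In every gene list below with a passing gene, fewer passed without either wild-type LP replicate. The 76 passing genes among those given by name under the rule were fitted 1434 times under the alternatives: 901 of these fits kept the call, 533 lost it and 0 changed its direction.

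**Figure D1:**
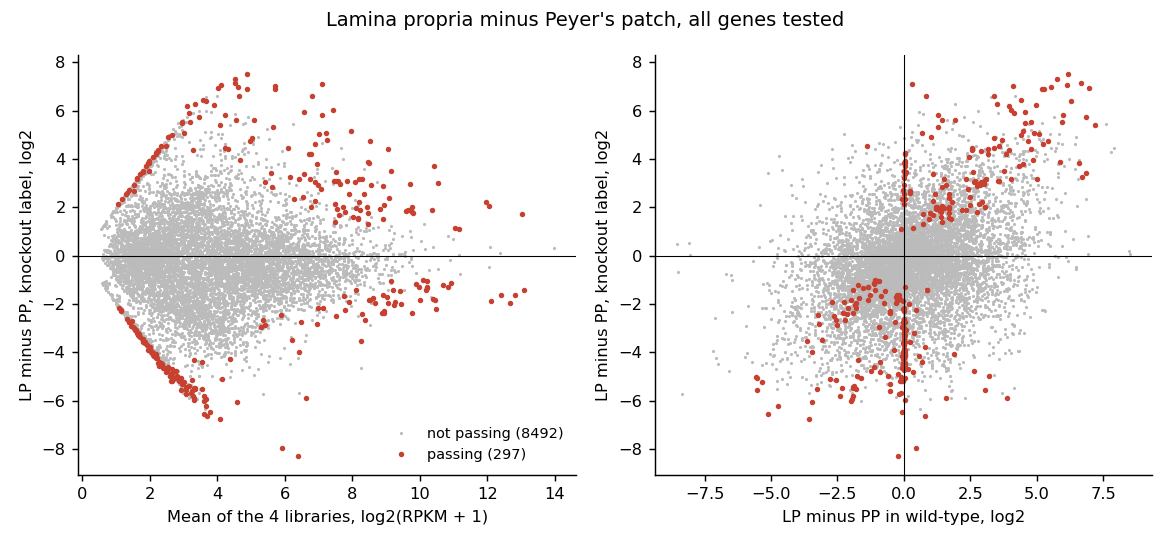
Difference between LP and PP in the libraries labelled knockout (log2 of RPKM + 1) for each of the 8789 genes, against the mean level of the 4 libraries (left) and against the same difference in wild-type (right); each point is a gene and the 297 passing genes are red. On the left the passing genes of low mean level lie along the edges of the cloud, where 1 tissue is near 0, and on the right a column of passing genes stands at a wild-type difference near 0.

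The 12 genes with the largest rise in LP included 2 chemokines, a granzyme, a growth factor and early response genes, and each was at 4.45 RPKM or less in both PP libraries. Of the 12, 6 entered through LP only, so that the filter itself required a difference in them. Cxcl2, which encodes a chemokine for neutrophils, stood at 1.15 and 1.19 RPKM in PP and 550.5 and 291 RPKM in LP (7.53 ± 0.71 on the log2 scale, limma adjusted p = 0.00545). Cxcl10, a chemokine for cells with the receptor CXCR3, stood at 0.94 and 0.903 RPKM in PP and 170.2 and 434 RPKM in LP (7.15 ± 0.81, limma adjusted p = 0.00927). The tissues did not overlap for either gene, and the 2 wild-type LP libraries also stood above both wild-type PP libraries, at 123 and 159.5 RPKM for Cxcl2 and 243 and 129.7 RPKM for Cxcl10. Gzmc, which encodes granzyme C, went from 0.748 and 0.878 RPKM to 436 and 193.5 RPKM (7.33 ± 0.80, limma adjusted p = 0.00838). Areg, which encodes amphiregulin, a ligand of the epidermal growth factor receptor known for tissue repair, went from 0.582 and 0.373 RPKM to 204 and 193 RPKM (7.08 ± 0.80, limma adjusted p = 0.00927). Its 2 LP libraries were close to each other, while those of Gzmc differed more.

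Others of the 12 belong to inducible feedback and signalling genes. Atf3, a stress-induced transcription factor, stood at 3.21 and 4.45 RPKM in PP and 632.5 and 501 RPKM in LP (6.88 ± 0.41, limma adjusted p = 0.00118). Ptgs2, the inducible prostaglandin synthase, stood at 0.256 and 0.294 RPKM in PP and 80.2 and 152 RPKM in LP (6.45 ± 1.01). Both genes were higher in each LP library than in each PP library. Errfi1, an inhibitor of the epidermal growth factor receptor, rose by 6.39 ± 0.87, and Clcf1, a cytokine of the IL-6 family, by 6.29 ± 1.04. The rest were the long noncoding RNA Snhg15 (7.01 ± 0.61), the splicing factor gene Cwc25 (6.97 ± 1.01), the coenzyme Q-binding gene Coq10b (6.89 ± 1.10) and the microRNA gene Mir155 (6.94 ± 0.91), with limma adjusted p-values of 0.00378, 0.0187, 0.0226 and 0.0168. Snhg15 was at 61.4 and 31.0 RPKM in wild-type PP, above the 3.98 and 3.23 RPKM of PP labelled knockout.

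**Figure D2:**
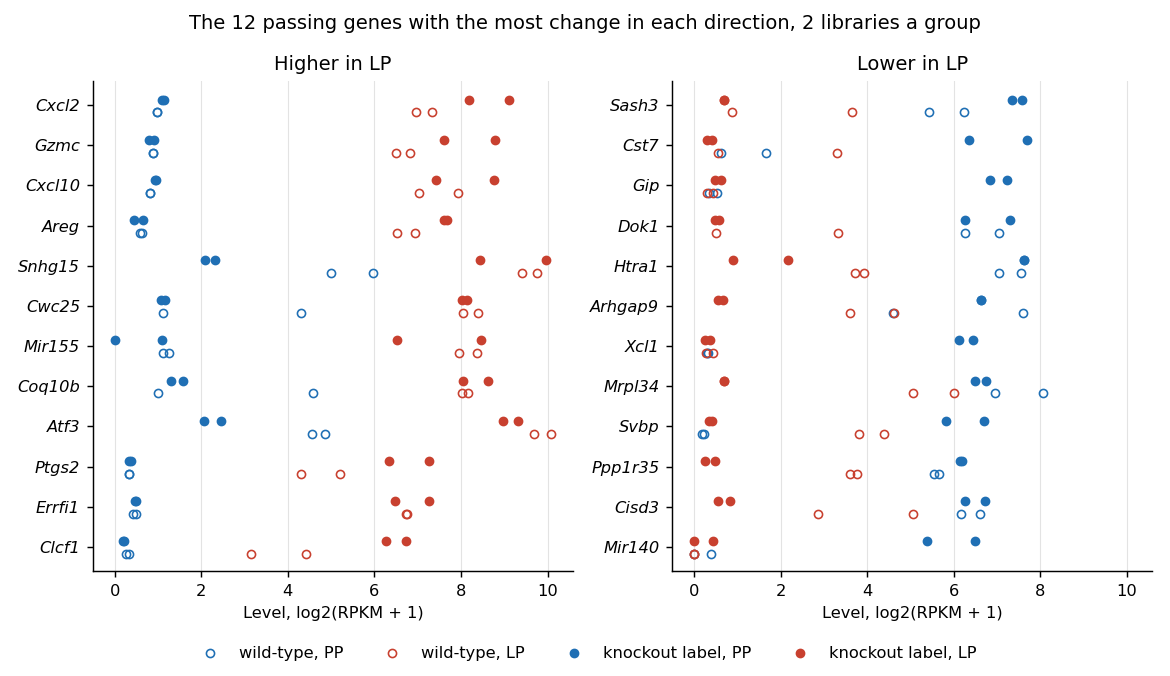
Level of the 12 passing genes with the largest rise (left) and the 12 with the largest fall (right) in LP, as log2(RPKM + 1) in each library; filled points are libraries labelled knockout, open points wild-type, blue PP and red LP. Filled red and blue points do not overlap for any of the 24, while for Gip, Xcl1 and Mir140 on the right the wild-type points of both tissues lie near 0 beside the filled LP points.

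MicroRNA genes were on both sides. Mir155, from a locus whose product is induced on activation of lymphocytes, stood at 0 and 1.15 RPKM in PP and 90.6 and 354 RPKM in LP. Mir140 stood at 41.0 and 88.4 RPKM in PP, was listed at 0 in LP replicate 1 and stood at 0.363 RPKM in LP replicate 2 (-5.71 ± 0.83, limma adjusted p = 0.0187). Neither gene's tissues overlapped. The neighbouring Mir132 and Mir212, named after their values were seen, passed too. Mir132 went from 0.392 and 1.13 RPKM to 231 and 72.05 RPKM (6.24 ± 1.13, limma adjusted p = 0.033), and Mir212 was listed at 0 in both PP libraries and stood at 78.3 and 65.4 RPKM in LP (limma adjusted p = 0.029). Reads over these short genes come from amplified total RNA and do not measure the mature microRNA. Mature sequences of these 4 genes, for Mir140 the 3p arm only, are shown from RefSeq (GRCm38.p6), with the seed, bases 2 to 8, in capitals, because Mir132 and Mir212 share 1 seed, AACAGUC, in their 3p arms, while Mir155 and Mir140 have seeds of their own.
mmu-miR-132-5p, chr11:75173686-75173707, plus strand: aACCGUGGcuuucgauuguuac
mmu-miR-132-3p, chr11:75173723-75173744, plus strand: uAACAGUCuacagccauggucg
mmu-miR-140-3p, chr8:107551288-107551308, plus strand: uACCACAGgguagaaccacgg
mmu-miR-155-5p, chr16:84714143-84714165, plus strand: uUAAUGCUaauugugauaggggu
mmu-miR-155-3p, chr16:84714182-84714202, plus strand: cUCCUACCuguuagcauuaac
mmu-miR-212-5p, chr11:75173403-75173425, plus strand: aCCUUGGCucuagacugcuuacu
mmu-miR-212-3p, chr11:75173443-75173464, plus strand: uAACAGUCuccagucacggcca

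Immediate early genes, which are transcribed within minutes of a stimulus and include the AP-1 factors, were among the groups with the most passing members. Of 38 tested, 14 rose and 2 fell in LP, beside 1.56% and 1.82% of all genes, and the median of the 38 was 1.79 against -0.32 for all genes. Only 3 of the 38 entered through 1 tissue alone. Gem, a small GTPase gene, stood at 163 and 172 RPKM in PP and 1965 and 1827 RPKM in LP (3.49 ± 0.20, limma adjusted p = 0.00118). Junb, an AP-1 subunit, stood at 2169.8 and 1979 RPKM in PP and 9650.5 and 7624 RPKM in LP (2.05 ± 0.14, limma adjusted p = 0.00249). Crem, a factor of the cyclic AMP response, stood at 24.1 and 25.0 RPKM in PP and 686 and 1104 RPKM in LP (5.09 ± 0.36, limma adjusted p = 0.00249). Each of the 3 was several times higher in both LP libraries than in either PP library, and with Atf3 they had the smallest p-values of the group. The 2 that fell, named after their values were seen, were the AP-1 subunit Fos, at 2056 and 1706 RPKM in PP and 650.0 and 869 RPKM in LP (-1.32 ± 0.21, limma adjusted p = 0.0223), and the phosphatase gene Dusp2, at 49.2 and 21.6 RPKM in PP and 0.088 and 0.0629 RPKM in LP (-4.97 ± 0.87, limma adjusted p = 0.0308). Fos moved against Junb and Fosb. Fosb, likewise chosen by its values, was at 100.4 and 72.6 RPKM in PP and 411.5 and 345 RPKM in LP. The 14 that rose became 9 and 7 without PP replicate 1 or 2 labelled knockout, 5 and 7 without LP replicate 1 or 2 labelled knockout, and 6 without either wild-type LP replicate.

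Of 21 genes of the NF-kB pathway tested, 5 rose and 0 fell, beside 1.56% and 1.82% of all genes. The median was 2.01, 16 differences were positive and 5 negative, and 10 had an unadjusted p under 0.05 with limma. All 5 encode proteins that regulate NF-kB. Tnfaip3, which encodes the ubiquitin-editing protein A20, stood at 12.1 and 37.3 RPKM in PP and 699 and 778 RPKM in LP (5.04 ± 0.60, limma adjusted p = 0.0107). Nfkbia, which encodes IkB alpha, the inhibitor that holds NF-kB in the cytoplasm, stood at 555 and 343 RPKM in PP and 1734 and 1776 RPKM in LP (2.01 ± 0.26, limma adjusted p = 0.0148). In both the LP libraries were close together and above PP. The genes Nfkbiz and Nfkbie, of the same IkB family, rose by 4.19 ± 0.45 and 3.10 ± 0.47 (limma adjusted p = 0.00838 and 0.0211), and Nfkbid, named after its values were seen, by 5.63 ± 0.97 (limma adjusted p = 0.0287). The subunit genes Nfkb1, Nfkb2, Rel, Rela and Relb did not pass. The 5 calls became 0 without either wild-type LP replicate or without LP replicate 2 labelled knockout, 1 without LP replicate 1 labelled knockout, and 8 without wild-type PP replicate 2.

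The 250 bases upstream of the start sites of some of these genes are shown because 14 and 5 members of these lists rose and some of their promoters hold a short motif known for each pathway. Letters in capitals mark short CRE sites, TGACG or CGTCA, which overlap where they form the full site TGACGTCA, the motif of the CREB and ATF factors, and matches to the kappaB consensus, on both strands. Sequences are from RefSeq (GRCm38.p6), 5′ to 3′ on the gene's strand, and Nr4a1 and Btg2 were chosen after their values were seen.
Atf3, chr1:191183334-191183583, minus strand: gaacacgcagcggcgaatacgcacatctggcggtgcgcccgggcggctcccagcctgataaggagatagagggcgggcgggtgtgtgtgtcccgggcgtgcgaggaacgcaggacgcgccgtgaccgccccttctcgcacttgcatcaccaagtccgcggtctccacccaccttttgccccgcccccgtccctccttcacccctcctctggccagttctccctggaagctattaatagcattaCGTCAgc
Nr4a1, chr15:101266596-101266845, plus strand: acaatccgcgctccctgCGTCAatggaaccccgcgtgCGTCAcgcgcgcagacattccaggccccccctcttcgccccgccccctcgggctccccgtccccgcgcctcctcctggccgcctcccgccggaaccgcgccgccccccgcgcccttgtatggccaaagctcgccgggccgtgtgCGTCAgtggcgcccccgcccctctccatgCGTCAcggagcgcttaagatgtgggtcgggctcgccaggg
Btg2, chr1:134079156-134079405, minus strand: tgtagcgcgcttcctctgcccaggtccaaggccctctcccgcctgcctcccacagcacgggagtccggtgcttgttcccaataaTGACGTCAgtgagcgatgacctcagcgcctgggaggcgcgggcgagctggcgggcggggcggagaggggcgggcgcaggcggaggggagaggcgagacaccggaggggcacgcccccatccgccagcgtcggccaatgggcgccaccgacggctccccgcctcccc
Nfkbia, chr12:55492648-55492897, minus strand: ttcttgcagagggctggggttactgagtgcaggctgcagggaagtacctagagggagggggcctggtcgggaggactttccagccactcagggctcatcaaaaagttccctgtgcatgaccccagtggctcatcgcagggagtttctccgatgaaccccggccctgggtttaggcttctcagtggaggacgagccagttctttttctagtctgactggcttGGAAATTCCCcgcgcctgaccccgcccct
Tnfaip3, chr10:19015411-19015660, minus strand: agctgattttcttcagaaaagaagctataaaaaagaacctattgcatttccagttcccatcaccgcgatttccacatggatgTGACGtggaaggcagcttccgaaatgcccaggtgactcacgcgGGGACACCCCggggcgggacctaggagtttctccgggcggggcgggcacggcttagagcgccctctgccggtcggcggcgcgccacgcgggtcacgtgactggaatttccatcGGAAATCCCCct

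A short CRE site was present in at least 1 promoter of 8 of the 11 rising immediate early genes matched in the RefSeq table, and of 20 of the 32 matched genes of the whole list (62.5%). The share was 33.9% over the 6611 tested genes matched, 48% over 102 matched genes that rose in LP and 25% over 104 that fell. Over all 27025 genes with a RefSeq promoter it was 19.8%. A kappaB match was present in at least 1 promoter of 4 of the 4 rising NF-kB pathway genes matched, but in only 4 of their 7 promoters. In the whole list, 8 of the 18 genes matched held it (44.4%). It was present in 19.6% of the genes that rose, 11.5% of those that fell, 5.85% of those tested and 4.46% of all genes with a promoter. These are counts of letters in a window and not of bound sites, and no test was made of them. The TCF/LEF motif CTTTGAT or ATCAAAG was found in 2.94% of the genes that rose, 3.85% of those that fell and 2.66% of those tested.

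**Figure D3:**
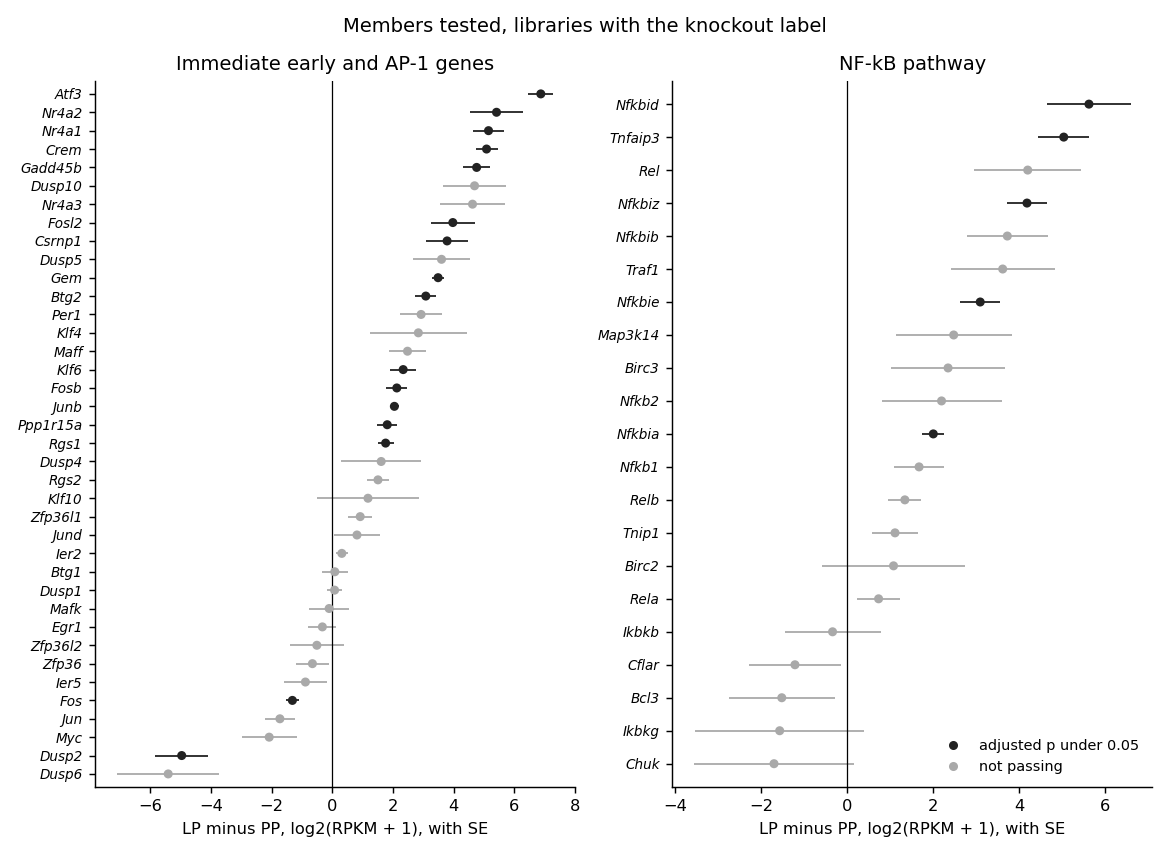
Difference between LP and PP in the libraries labelled knockout, on the log2(RPKM + 1) scale with its standard error, for the 38 immediate early and AP-1 genes (left) and the 21 NF-kB pathway genes (right) tested; black points passed at a limma adjusted p under 0.05. Most points lie right of 0, with Fos and Dusp2 as the passing points on the left side.

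Effector cytokine genes were higher in LP where they passed: 3 of the 9 tested rose and 0 fell, beside 1.56% and 1.82% of all genes. Of the 9, 6 had an unadjusted p under 0.05 with limma, and the rest of the 20 listed did not reach the filter. Il22 stood at 615 and 460.1 RPKM in PP and 4422.5 and 4047 RPKM in LP (2.99 ± 0.23, limma adjusted p = 0.00297). Il17f stood at 112 and 73.1 RPKM in PP and 1159.5 and 1572 RPKM in LP (3.88 ± 0.55, limma adjusted p = 0.0187). The tissues were well apart for both, and the third gene was Areg. Il17a stood at 59.8 and 118 RPKM in PP and 437 and 346.5 RPKM in LP, without overlap, but its difference of 2.2 ± 0.76 did not pass (limma adjusted p = 0.186). Without either wild-type LP replicate or either LP replicate labelled knockout, 1 of the 3 calls was left.

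Of 21 genes of lymphoid organ induction, 0 rose and 1 fell, beside 1.56% and 1.82% of all genes, and 9 had an unadjusted p under 0.05 with limma. The gene that fell was Ltb, which encodes lymphotoxin beta, the membrane anchor of the ligand that acts on stromal cells. Ltb stood at 2063.5 and 1889.9 RPKM in PP and 557 and 262 RPKM in LP (-2.37 ± 0.34, limma adjusted p = 0.0187). Its partner Lta, which encodes lymphotoxin alpha, stood at 231 and 269 RPKM in PP and 36.9 and 3.57 RPKM in LP (-4.25 ± 1.04, limma adjusted p = 0.0795). Both lymphotoxin genes were lower in each LP library than in each PP library, and Lta missed the threshold with a wide gap between its LP libraries. Tnfsf11, which encodes the cytokine RANKL, went the other way, at 175 and 111 RPKM in PP and 546 and 643 RPKM in LP (2.08 ± 0.54, limma adjusted p = 0.0963). Tnf stood at 80.9 and 111 RPKM in PP and 24.9 and 30.3 RPKM in LP (-1.75 ± 1.08, limma adjusted p = 0.473). After median-of-ratios rescaling Ltb stood at -1.91 with a limma adjusted p of 0.0514. Its call was also lost without either PP replicate labelled knockout or either wild-type LP replicate, and 2 and 3 genes of the list rose without wild-type PP replicate 1 or 2.

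Of 31 genes of LTi identity, 2 rose and 4 fell in LP, beside 1.56% and 1.82% of all genes. Their median was -0.54 against -0.32 for all genes, and -0.09 after median-of-ratios rescaling. The tetraspanin gene Cd81 stood at 973.5 and 928 RPKM in PP and 331 and 385 RPKM in LP (-1.41 ± 0.23, limma adjusted p = 0.0251). The ion channel gene Tmem176a stood at 2735.5 and 2257 RPKM in PP and 918 and 1276 RPKM in LP (-1.20 ± 0.20, limma adjusted p = 0.0258), and its neighbour Tmem176b, named after its values were seen, fell with it. The LP libraries lay below both PP libraries in these 3. After median-of-ratios rescaling 0 of the falls passed with limma, with adjusted p = 0.0832 for Cd81 and 0.0714 for Tmem176a. The circadian and lineage factor gene Nfil3 stood at 24.9 and 65.0 RPKM in PP and 343 and 333 RPKM in LP (3.04 ± 0.52, limma adjusted p = 0.028), and Rora, likewise chosen by its values, was at 204 and 278 RPKM in PP and 797 and 1292 RPKM in LP (2.09 ± 0.42, limma adjusted p = 0.0462). Both rising genes were also higher in wild-type LP than in wild-type PP. None of the 4 falls was left without either PP replicate labelled knockout or either wild-type LP replicate, and 1 and 2 were left without LP replicate 1 or 2 labelled knockout, and 2 without wild-type PP replicate 1.

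Receptor genes of the lineage, and the transcription regulator gene Id2, showed no passing difference. Il7r stood at 386 and 251.5 RPKM in PP and 206 and 274 RPKM in LP, Kit at 153 and 99.9 RPKM and 117.5 and 253 RPKM, and Il23r at 111 and 151 RPKM and 54.8 and 158 RPKM. In these 3 genes the tissues overlapped. Without overlap, Id2 stood at 1603 and 2024 RPKM in PP and 1015 and 1506.5 RPKM in LP, Il1r1 at 194 and 131 RPKM and 54.0 and 63.2 RPKM, and Ccr6 at 334 and 398 RPKM and 89.3 and 165 RPKM, with limma adjusted p = 0.286, 0.298 and 0.115. Ahr, which encodes the aryl hydrocarbon receptor that senses dietary ligands, stood at 58.6 and 40.3 RPKM in PP and 4.26 and 3.95 RPKM in LP (-3.28 ± 0.85, limma adjusted p = 0.0932). Cd7, which encodes a surface protein of lymphocytes, fell from 507.5 and 426 RPKM in PP to 116 and 126 RPKM in LP (-1.94 ± 0.23, limma adjusted p = 0.0108), and it kept its call after median-of-ratios rescaling.

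**Figure D4:**
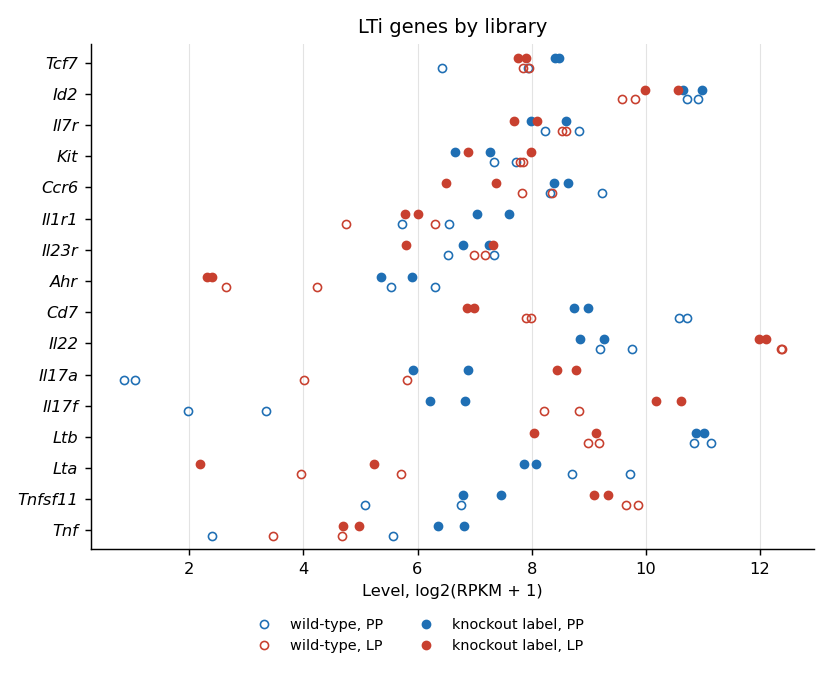
Level of 16 genes of LTi identity and function in each library, as log2(RPKM + 1); filled points are libraries labelled knockout, open points wild-type, blue PP and red LP. Il22 and Il17f lie further right in LP and Cd7 and Ltb further left, whereas the points of Il7r, Kit and Il23r are mixed.

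Chemokine, granzyme and repair genes moved in both directions. Over all genes, 1.56% rose and 1.82% fell. Of 8 chemokine ligand genes tested, 3 rose and 1 fell, and 5 of the 8 entered through 1 tissue alone. The third riser beside Cxcl2 and Cxcl10 was Cxcl9, at 0.098 and 0.146 RPKM in PP and 42.4 and 28.9 RPKM in LP (5.0 ± 1.02, limma adjusted p = 0.0483). Xcl1, a chemokine for cross-presenting dendritic cells, stood at 68.1 and 85.6 RPKM in PP and 0.189 and 0.304 RPKM in LP (-5.96 ± 0.84, limma adjusted p = 0.0187). Xcl1 stood at 0.356 RPKM or less in all 4 wild-type libraries. Of 7 granzyme and killing genes, Gzmc, Gzmb (5.92 ± 1.11) and the granule proteoglycan gene Srgn (1.91 ± 0.23) rose, and Lamp1, which encodes a lysosomal membrane protein, fell by 2.40 ± 0.38. Gzmb went from 0.201 and 0.105 RPKM to 127 and 36.9 RPKM, and Srgn from 618 and 734 RPKM to 2219 and 2874 RPKM. Of 10 tissue repair genes, 3 rose (Areg, Il22 and the protease gene Furin, 4.47 ± 0.47) and 1 fell, the matrix protease gene Mmp9, which stood at 16 and 19.2 RPKM in PP and at most 0.0909 RPKM in LP. Of 24 trafficking genes the receptor gene Gpr183, known for guiding LTi cells, rose by 1.5 ± 0.27 (limma adjusted p = 0.0308). Of 8 markers of ILC1 and NK cells Gzmb rose and Xcl1 fell, and of 8 ILC2 markers Areg rose.

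The 12 largest falls in LP were in genes at 41.0 to 205 RPKM in PP and at 3.53 RPKM or less in LP. Of the 12, 11 entered through PP only, all but Htra1, so that the filter itself required a difference in them. Sash3, an adaptor of lymphocyte receptor signalling, stood at 160.4 and 189 RPKM in PP and 0.625 and 0.620 RPKM in LP (-6.75 ± 1.07, limma adjusted p = 0.0223). Htra1, a secreted serine protease, stood at 197 and 195 RPKM in PP and 0.874 and 3.53 RPKM in LP (-6.08 ± 0.66, limma adjusted p = 0.00838). Both were high in wild-type PP too, at 42.4 and 73.8 RPKM for Sash3 and 186 and 131 RPKM for Htra1. The mitochondrial ribosomal gene Mrpl34 fell by 5.91 ± 0.68, the signalling adaptor gene Dok1 by 6.24 ± 1.13, the GTPase regulator gene Arhgap9 by 6.02 ± 1.08, the centrosomal gene Ppp1r35 by 5.80 ± 0.78 and the iron-sulfur protein gene Cisd3 by 5.79 ± 0.91. These 5 were at 23.3 RPKM or more in both wild-type PP libraries. In contrast, Gip, which encodes a hormone of enteroendocrine cells, stood at 148 and 114 RPKM in PP labelled knockout (-6.48 ± 0.92, limma adjusted p = 0.0187) and at 0.549 RPKM or less in the other 6 libraries. The cystatin gene Cst7 (-6.66 ± 1.29, limma adjusted p = 0.0419) and the vasohibin-binding gene Svbp (-5.88 ± 1.02, limma adjusted p = 0.0288) stood at 205 and 80.4 RPKM and at 102.5 and 55.7 RPKM in PP labelled knockout, and at no more than 2.16 RPKM in wild-type PP. In wild-type LP, Cst7 stood at 0.475 and 8.87 RPKM and Svbp at 13.05 and 19.96 RPKM. The wild-type difference of Svbp thus had the other sign (3.89 ± 1.02, limma adjusted p = 0.112). In all, 61 of the 160 falling genes were under 1 RPKM in the 6 libraries other than PP labelled knockout, as were 94 of the 8789 genes tested.

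Transcripts of the mitochondrial genome were lower in LP as a block. Of 15 tested, 14 fell and 0 rose, beside 1.82% and 1.56% of all genes. The differences of the 15 ran from -2.37 to -1.43 with a median of -1.82. The cytochrome b gene mt-Cytb stood at 12481 and 13350 RPKM in PP and 3508 and 3150 RPKM in LP (-1.96 ± 0.12, limma adjusted p = 0.00118). The oxidase subunit gene mt-Cox3 stood at 3112 and 3026 RPKM in PP and 654 and 679 RPKM in LP (-2.2 ± 0.16, limma adjusted p = 0.00277). In both genes the 2 libraries of a tissue nearly coincided. The complex I gene mt-Nd1 and the ATP synthase gene mt-Atp8 fell by 1.63 ± 0.14 and 1.64 ± 0.13. The share of the summed RPKM in these genes was 13.4% and 13.6% in PP labelled knockout, 5.06% and 3.67% in LP labelled knockout, and 3.06% to 3.37% in the 4 wild-type libraries. Their share, a sign of RNA quality and cell state, thus stood apart in the PP libraries labelled knockout, and its part in the other results was not tested. The 14 calls became 6 without either PP replicate labelled knockout or either wild-type LP replicate, 9 without LP replicate 2 labelled knockout and 9 after median-of-ratios rescaling. Nuclear genes of the respiratory chain had a median of -0.68 over 81 tested, with 0 rising and 2 falling, a share near the 1.82% of all genes. The pair were Ndufa3 of complex I (-1.76 ± 0.32, limma adjusted p = 0.0337) and Cox6b1 of complex IV (-1.03 ± 0.20, limma adjusted p = 0.0441). After median-of-ratios rescaling they had limma adjusted p = 0.0733 and 0.262. Of 37 proteasome genes 1 fell, again near that share, the catalytic subunit gene Psmb5, at 94.7 and 137 RPKM in PP and 16.2 and 13.7 RPKM in LP (-2.85 ± 0.50, limma adjusted p = 0.029). Its call too was lost after that rescaling.

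Immunoglobulin transcripts, made by B cells and plasma cells, were present in all 4 libraries and differed between the tissues. They took 2.82% and 2.81% of the summed RPKM in PP and 10.3% and 11.6% in LP, and 6.01% to 17.1% in the wild-type libraries. Igha, the heavy chain of secreted gut antibody, stood at 1733 and 1939 RPKM in PP and 7896 and 9434 RPKM in LP (2.24 ± 0.21, limma adjusted p = 0.00545). Igkc stood at 4748 and 4368 RPKM in PP and 16054 and 14326 RPKM in LP (1.74 ± 0.20, limma adjusted p = 0.00927), and the joining chain gene Jchain rose by 2.22 ± 0.37 (limma adjusted p = 0.0246). These 3 were the passing members of both the 17 plasma cell markers and the 8 constant genes tested, where 1.56% of all genes rose. Summed over the 24 plasma cell markers, PP held 8100.0 and 7844 RPKM and LP 26067 and 29166 RPKM, with 15 of the 24 at 1 RPKM or more in both libraries of either tissue. Igkc and Igha made up most of these sums, and 7 of the 17 differences were negative. Sdc1, a surface marker of plasma cells, stood at 62.9 and 75.1 RPKM in PP and 20.7 and 69.2 RPKM in LP, and Mzb1, a chaperone of antibody secretion, at 25.4 and 103 RPKM in PP and 204 and 75.75 RPKM in LP, so that the tissues overlapped for both. Follicular B cell markers went the other way: 0 of 13 rose, 2 fell and all 13 differences were negative, with a median of -3.21 against -0.32 for all genes, of which 1.82% fell. Of the 13, 5 entered through PP only, which fixes their direction. Cd79b, of the B cell receptor, stood at 266 and 197 RPKM in PP and 33.65 and 32.4 RPKM in LP (-2.76 ± 0.44, limma adjusted p = 0.0226), and Fcrla at 19.2 and 23.3 RPKM and at most 0.0295 RPKM (-4.43 ± 0.62, limma adjusted p = 0.0187). Over the 24 follicular B cell markers the sums were 1304 and 1200.0 RPKM in PP and 405 and 378 RPKM in LP, with 13 of 24 at 1 RPKM or more in both PP libraries and 5 in both LP libraries. Pax5, the B cell lineage factor, was listed at 0 in all 4. The part of admixed B lineage cells in the other results was not tested. Without either wild-type LP replicate or either LP replicate labelled knockout, 0 of the 13 passed with limma. Without either PP replicate labelled knockout 1 fell, and without wild-type PP replicate 1 or 2 the falls numbered 3 and 4.

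Of 85 variable (V) segments tested, 2 rose and 9 fell, beside 1.56% and 1.82% of all genes, and 25 of the 85 entered through 1 tissue alone. Ighv9-3 stood at 1331 and 1603 RPKM in PP and 4.2 and 3.26 RPKM in LP (-8.28 ± 0.69, limma adjusted p = 0.0036), and Ighv1-82 at 947 and 932 RPKM and 2.83 and 2.77 RPKM (-7.95 ± 0.79, limma adjusted p = 0.00616). Igkv13-85 stood at 22.7 and 22.5 RPKM in PP and was listed at 0 in both LP libraries (limma adjusted p = 0.0183). These segments were alike in the 2 PP libraries. Ighv1-26 went from 9.24 and 11.6 RPKM in PP to 868 and 1411 RPKM in LP (6.61 ± 0.29, limma adjusted p = 5.48e-04), and Ighv1-15, named after its values were seen, from 34.2 and 2.79 RPKM to 2570.3 and 993 RPKM. Among the 45 segments with at least 50 RPKM in 1 of the 4 libraries, log2 levels of the 2 PP libraries had a Pearson r of 0.913 across segments and those of the 2 LP libraries an r of -0.30. Segments at 50 RPKM or more numbered 13 in either PP library and 10 in both, against 37 in either LP library and 5 in both. Because a segment entered through any 1 high library, the choice itself shapes both r values. They are therefore not a test of how alike the libraries of a tissue were. Segments of 1 family share sequence, reads shared between them cannot be placed with certainty, and the segments are not independent of each other. Without LP replicate 1 or 2 labelled knockout, 10 segments rose in either case, and 2 and 3 fell. Without either wild-type LP replicate 1 rose and 2 fell, and without PP replicate 2 labelled knockout 1 rose and 7 fell.

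**Figure D5:**
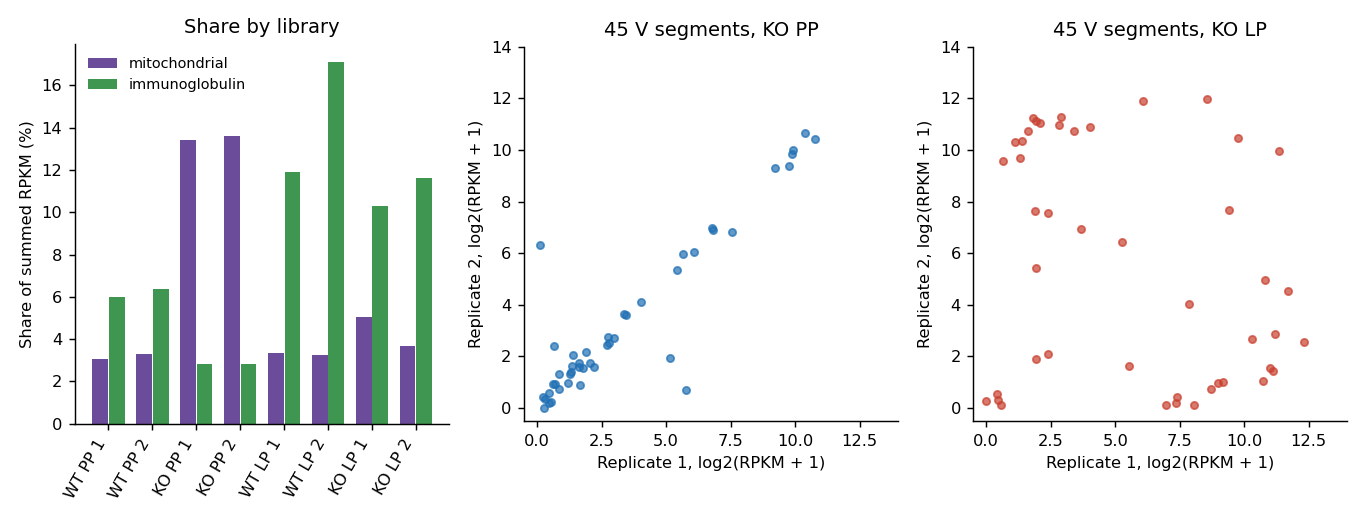
Left, share of the summed RPKM taken by mitochondrial and immunoglobulin genes in each of the 8 libraries (WT, wild-type; KO, labelled knockout). Middle and right, log2(RPKM + 1) of 45 V segments in replicate 2 against replicate 1 of PP and of LP labelled knockout. The PP points lie near the diagonal (r = 0.913). Many LP points are high in 1 library and low in the other (r = -0.30). Each segment was chosen for at least 50 RPKM in 1 or more of these libraries, and this choice itself shapes both r values.

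The counts of other cell markers stand beside 1.56% of all genes that rose and 1.82% that fell. Of 10 T cell markers 1 fell, Cd8b1, at 11.8 and 23.9 RPKM in PP and 0.0336 and 0.036 RPKM in LP (-4.11 ± 0.65, limma adjusted p = 0.0223), and the 22 listed summed to 1284 and 1454 RPKM in PP and 671 and 1044 RPKM in LP. Cd3e stood at 40.6 and 56.3 RPKM in PP and 1.94 and 14.3 RPKM in LP. Cd8a did not go with Cd8b1, at 0.0166 and 0.016 RPKM in PP and 0.00766 and 5.35 RPKM in LP. Trac stood at 0.363 and 43.97 RPKM in PP and 0.384 and 0.768 RPKM in LP. Of the 10 differences tested, 8 were negative and 2 positive. Of 8 myeloid markers 1 fell, Fcer1g, which innate lymphoid cells also express (-1.15 ± 0.18, limma adjusted p = 0.0213, and 0.114 after median-of-ratios rescaling), while Itgax and S100a8 were listed at 0 in all 4 libraries. Cd14 stood at 0.156 and 0.0831 RPKM in PP and 90.5 and 32.5 RPKM in LP. Of 28 epithelial markers 0 passed with limma and 5 had an unadjusted p under 0.05. Of the 28 differences, 16 were negative and 12 positive. The 2 smallest p-values were those of the goblet cell genes Tff3 and Agr2 (limma adjusted p = 0.117 and 0.129). Tff3 stood at 37.4 and 36.4 RPKM in PP and 416 and 391.5 RPKM in LP. Agr2 stood at 0.34 and 0.294 RPKM in PP and 107 and 141 RPKM in LP, and it entered through LP only, which fixes its direction. Muc2, another goblet cell gene, stood at 0.0426 RPKM or less in all 4 libraries. Of 6 markers of M cells and follicle epithelium Marcksl1 rose, from 13.7 and 39.3 RPKM to 396 and 512.5 RPKM (4.22 ± 0.52, limma adjusted p = 0.013). Of 4 stromal and endothelial markers, 1 glial marker, 2 haemoglobin genes and 4 sex-linked transcripts 0 passed with limma, and 1, 0, 2 and 0 had an unadjusted p under 0.05. The stromal genes Pdgfra and Col1a1 were listed at 0 in all 4.

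Stress and metabolic genes were mixed, where 1.56% of all genes rose and 1.82% fell. Of 24 genes of endoplasmic reticulum stress, 3 rose and 0 fell, with a median of 1.05. Herpud1, of the degradation machinery of that compartment, stood at 71.5 and 127 RPKM in PP and 944 and 812 RPKM in LP (3.19 ± 0.32, limma adjusted p = 0.00616), and the chaperone gene Hspa5 (1.90 ± 0.29) and the sensor gene Ern1 (3.04 ± 0.57) rose with it. Plasma cells also use these genes, the plasma cell markers Igha, Igkc and Jchain rose in LP too, and the part of such cells in this rise was not tested. Among 23 antioxidant genes the ferritin genes Fth1 and Ftl1, which store iron, rose by 1.15 ± 0.22 and 1.29 ± 0.26 (limma adjusted p = 0.0413 and 0.0488). One gene rose in each of 3 further lists: the hexokinase gene Hk2 of 19 glycolysis genes (4.36 ± 0.82), the repressor gene Bhlhe40 of 11 circadian clock genes (2.94 ± 0.37) and the cell cycle inhibitor gene Cdkn1a of 21 cell cycle genes (3.85 ± 0.63). The limma adjusted p-values were 0.0371, 0.0131 and 0.0242, and Bhlhe40 stood at 129.8 and 141 RPKM in PP and 907 and 1206 RPKM in LP.

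In the remaining lists 0 genes passed with limma. Over 86 genes for ribosomal proteins the median was 0.01, with 3 at an unadjusted p under 0.05, the 18 heat shock chaperones a median of 0.67 with 3, and the 23 lipid metabolism genes -0.63 with 7. Medians were -0.24 over 24 interferon response genes, -0.80 over 10 genes of MHC class II and costimulation, -0.08 over 22 survival genes, -0.35 over 18 Wnt pathway genes, -0.42 over 17 Notch pathway genes and -0.01 over 10 genes of the aryl hydrocarbon and retinoic acid responses, with 1, 2, 7, 5, 1 and 2 genes at an unadjusted p under 0.05. The Wnt pathway, in which TCF-1 acts, had no member past the threshold. Its lowest p-values belonged to the receptor gene Fzd5, at 0.015 and 0.0216 RPKM in PP and 3.71 and 6.68 RPKM in LP, and the corepressor gene Tle5, at 222 and 224 RPKM in PP and 94.2 and 50.7 RPKM in LP (limma adjusted p = 0.123 and 0.129). After median-of-ratios rescaling the medians of the interferon, survival, Wnt, aryl hydrocarbon, cell cycle, epithelial, M cell and ILC2 lists turned positive.

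The same comparison in wild-type libraries passed 182 genes (2.07% of 8789), 121 higher and 61 lower in LP. Its group means share no library with those of the libraries labelled knockout. Both comparisons, however, used the spread shared by all 8 libraries, with the same standard error for a gene in both. Their calls are therefore not independent, and the overlap of calls is not a separate replication. Of the 297 genes of the libraries labelled knockout, 92 passed in wild-type as well (31% of the 297 and 50.5% of the 182), all in the same direction, 65 higher and 27 lower. Of the 137 rising genes 132 had a positive wild-type difference (96.4%), and of the 160 falling genes 110 a negative one (68.8%), where 61.9% of all genes had the same sign in both. Across genes, which are not independent, the 2 differences were related with Pearson's r at 0.367 and Spearman's rho at 0.338. Il22 differed by 2.89 ± 0.23 in wild-type, Gem by 3.75 ± 0.20 and Ltb by -1.91 ± 0.34, each beside a like value in the libraries labelled knockout. The wild-type tissues also stood apart in Xist and Ddx3y, and the part of sex in these differences and in the test that follows was not tested.

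The test of the difference between the 2 tissue effects, labelled knockout minus wild-type, passed 3 of 8789 genes (0.0341%), and 783 had an unadjusted p under 0.05. Ighv1-26 differed by 5.77 ± 0.42 and the joining segment Igkj4 by -7.01 ± 0.54 (limma adjusted p = 0.0128 for both), and mt-Cytb by -1.64 ± 0.16 (limma adjusted p = 0.0495). For mt-Cytb the wild-type libraries stood at 3112 and 3365 RPKM in PP and 2473 and 2728 RPKM in LP, so the PP libraries labelled knockout were the high ones. Igkj4, chosen by its values, was at 214 and 264 RPKM in PP and 172.5 and 154 RPKM in LP labelled knockout, and at 4.05 and 5.92 RPKM in wild-type PP and 528 and 517 RPKM in wild-type LP. Beyond these, mt-Cox3, mt-Nd1 and mt-Atp8 had interactions of -2.17, -1.44 and -1.38 with limma adjusted p = 0.0572, 0.102 and 0.102. The small GTPase gene Rhog was at 144 to 356 RPKM in all 4 libraries labelled knockout, and at 0.933 and 1.19 RPKM in wild-type PP and 137 and 209 RPKM in wild-type LP (interaction -5.68, limma adjusted p = 0.102). On the positive side the smallest p-values were those of Cbx8, a Polycomb subunit (8.52), the microtubule gene Map7 (7.16), the phosphatase gene Pgp (5.72), the lipase gene Pnpla6 (8.82) and Gpn2 (4.22), with limma adjusted p = 0.151 to 0.186. Gpn2 alone among these 5 passed between the tissues (4.27 ± 0.61, limma adjusted p = 0.0187), at 0.0382 and 0.0367 RPKM in PP and 19.3 and 18.6 RPKM in LP. The interaction count was 0 without any 1 of wild-type PP replicate 1, either PP replicate labelled knockout, either wild-type LP replicate or LP replicate 2 labelled knockout, 1 without wild-type PP replicate 2 and 7 without LP replicate 1 labelled knockout.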

How the data were processed

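RNA of 8 libraries, 2 in each of 4 groups, was amplified with Smart-seq2, per the labels' protocols. The table deposited by the authors holds RPKM per gene and library as log2(RPKM + 1), and its entries of 0.0001 were read as 0. The submitters' processing notes name Subread and its counter featureCounts, with the mm10 build, and no aligner, strand option or gene annotation is given in the sources used here. No column was left unmapped (0). The table gives no counts, so depth was taken from the step that 1 read makes in low genes of known length (GENCODE M21), and it covers PCR copies as well as molecules. RefSeq (GRCm38.p6) named 25275 of the 27179 Entrez genes, and overlapping genes cannot be told apart.

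Genes with at least 1 RPKM in 2 of the 4 libraries labelled knockout were fitted as log2(RPKM + 1), a pseudocount of 1, in R 4.3.3 by limma 3.58.1, with a trended eBayes spread, over 4 group means of all 8 libraries with 4 residual degrees of freedom. The fit was first tried on simulated libraries with set changes of 1, 2, 4 or 6 on the log2 scale. Of 50 genes at each size it found 0, 2, 16 and 30. Simulated group means equalled their set values, so this trial could not measure false calls. The counts found likewise leave out the error of group means, so they do not measure how often such changes would be found. Tests were two-sided, with Benjamini-Hochberg adjustment over all 8789 genes and a threshold of 0.05. Fold changes on this scale understate those of low genes. No permutation test of 2 against 2 libraries can go under p = 0.333, so none was run. Errors are standard errors of the fit. The members and the 40 gene lists were chosen with earlier results of these data known, and lists are described by counts and medians only. Named genes are the 12 largest passing changes per direction whose higher tissue averaged 5 RPKM or more, without overlap, leaving out immunoglobulin segments and predicted genes, 5 per direction for the interaction, up to 4 passing members of a list or the 2 with the smallest p, and a fixed set of LTi genes. Lists were given by their passing members, and where none passed only some were named. In all, 19 alternatives were tried: pseudocount, filter, scaling, genes tested, libraries fitted, replicate block, trend and each library left out. Results for 2 genes of these lists are not reported here.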

Additional observations from a re-analysis of the deposited data

Results flagged for a closer look

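In 3 genes the tissue difference of the libraries labelled knockout differed from that of wild-type by a test of the difference itself. For the variable segment Ighv1-26 it was larger by 5.77 on the log2(RPKM + 1) scale, being 6.61 in the libraries labelled knockout and 0.84 in wild-type. For the joining segment Igkj4 it was lower by -7.01, being -0.54 against 6.47. For mt-Cytb it was lower by -1.64, being -1.96 against -0.32. In each gene the 2 libraries of every group were close to each other, and the PP libraries of the 2 genotypes were farther apart than the LP libraries. For the 2 segments the part of admixed B lineage cells was not tested.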

How the results depend on the processing

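The 297 calls between the tissues became 197 with a mean of at least 5 RPKM required and 26 with the replicate block. In the 4 libraries labelled knockout alone they became 0 (1665 at an unadjusted p under 0.05 with limma). That fit had fewer degrees of freedom and no spread from the wild-type libraries, and the part of either was not tested. Leaving out 1 library at a time gave 36 to 318 calls. The other settings gave 209 to 321. The 3 interaction calls became 12 with a pseudocount of 5 and 36 without a filter on low values. They became 0 with limma in 3 settings: with the replicate block (680 at an unadjusted p under 0.05), without a trend (808), and when mitochondrial and immunoglobulin genes were left untested (739), which removes the 3 genes themselves. Leaving out 1 library at a time gave 0 to 7. The cause of the other shifts was not tested. Same-numbered libraries did not deviate together (r = -0.025 in the libraries labelled knockout and 0.0089 in wild-type), so the numbers are not taken as pairs.

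None of the 76 passing named genes changed direction under these alternatives. Among the 45 that did not pass, 7 fits turned the sign. Il7r came to 0.068 with median-of-ratios rescaling. Leaving out 1 library at a time, the difference ran from -0.84 to 4.98 for Xist, -1.35 to 3.11 for Uty, -0.072 to 1.03 for Kit, -1.22 to 0.29 for Il23r and -1.88 to 3.82 for Ddx3y, the lowest or the sign change coming without 1 of the LP replicates labelled knockout and, for Ddx3y (-0.068), also without PP replicate 2. Tnfsf11 passed without wild-type PP replicate 1 or 2 (limma adjusted p = 0.0338 and 0.0347). Depth limits low genes, and 2 libraries a group limit the rest: the median standard error of 1.19 leaves small differences unresolved.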

Other observations

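Across the 8789 genes, each LP library labelled knockout correlated more with both wild-type LP libraries (Pearson r of log2 levels 0.687 to 0.727) than with the other LP library labelled knockout (0.639). The PP libraries labelled knockout had an r of 0.632 with each other and 0.591 to 0.60 with the wild-type PP libraries. The wild-type LP libraries had an r of 0.771 with each other, and the wild-type PP libraries 0.595. These values are across genes, which are not independent replicates, and were not tested.

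Among the 137 rising genes, 118 reached 1 RPKM in both wild-type LP libraries and 18 stayed under 1 RPKM in the 6 libraries other than LP labelled knockout, as did 49 of all 8789 genes. Among the 160 falling genes, 69 did not reach 1 RPKM in either of the wild-type PP libraries. For the counts of 118 and 69, the matching shares of all 8789 genes were not taken. These counts therefore describe the called genes only and do not set them apart from the other genes.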
